A study of Homo sapiens with 28 samples.

Results

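Binding of phosphorylated c-JUN (p-c-JUN) was compared between senescent (Sen) and proliferating (Pro) IMR-90 ER:Ras cells by CUT&RUN, an assay in which an antibody guides a nuclease to cut the DNA beside its target. The comparison took the 4 of 28 libraries whose titles name p-c-JUN with Sen or Pro and replicate 1 or 2, and their 4 deposited peak lists. Together these lists held 220564 peaks on chromosomes 1 to 22 and X. Peaks that overlapped by at least 1 bp were joined into 106528 regions. A region was called gained when both Sen lists and neither Pro list held a peak, lost when both Pro lists and neither Sen list did, and kept when all 4 did. These calls state presence in a list and carry no test, and a region missing from a list may still be bound below the threshold of the peak caller.

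IMR-90 ER:Ras cells are human fetal lung fibroblasts with an oncogenic Ras that 4-hydroxytamoxifen switches on, which drives the cells into senescence. The Sen libraries were from cells with a control siRNA (siCtrl) and 100 nM 4-hydroxytamoxifen for 6 days. The Sen_siFOXF1/2 libraries had siRNAs against FOXF1 and FOXF2 in place of the control. The Pro libraries carried the same siCtrl and 4-hydroxytamoxifen tags and the same senescent cell type tag as the Sen libraries, against their titles, so the titles alone set the conditions here. The study also profiled FOXF1, a forkhead factor of lung mesenchyme, and acetylation of histone H3 at lysine 27 (H3K27ac), and asked where these lie in Pro, Sen and FOXF1/2-depleted cells. Nothing states that replicates came from separate cultures, so the spread between libraries may be technical. With 2 libraries against 2, an exact permutation test cannot give a p below 0.333.

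c-JUN is a subunit of AP-1, a family of dimeric transcription factors of the JUN, FOS and ATF proteins that bind a short palindromic site. JUN N-terminal kinases phosphorylate c-JUN in response to stress and to Ras signalling, which raises its ability to activate transcription. In senescence AP-1 is known for binding at enhancers, and H3K27ac marks enhancers and promoters that are in use. Because the H3K27ac of Pro cells came from other libraries than p-c-JUN, it could be set beside the gained, lost and kept regions as a measure that did not enter their choice. Nearby genes and AP-1 sites in the DNA were not analysed here, nor were markers of the cell type, since coordinates on hg19 were not mixed with an annotation of another build.

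The Sen lists had 70177 and 93443 peaks in replicates 1 and 2, against 24808 and 32136 in the Pro lists. All Sen values lay above all Pro values, with a log2 difference of 1.52 ± 0.278 (SE, n = 2 per condition; p = 0.333 by the exact permutation test, two-sided). The peaks covered 30.8 and 38.6 Mb in the Sen lists and 10.7 and 13.4 Mb in the Pro lists. Peaks did not differ in width beyond the spread, with medians of 409 and 373 bp in the Sen lists and 409 and 392 bp in the Pro lists. The median fold enrichment over the local background at the summit was also alike, at 5.95 and 5.82 in Sen and 6.01 and 6.05 in Pro. Numbers of mapped reads are unknown. The lowest local background, solved from the deposited values, was divided by the width of the narrowest peak of each list. It was 3.59 and 3.23 fragments per kilobase in Sen and 3.89 and 3.12 in Pro, and the conditions overlapped in it. Whether it measures depth was not tested.

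The lists were nested. Of the Pro peaks, 90.9% and 93.0% of replicate 1 were found in Sen replicates 1 and 2, and 86.0% and 89.8% of replicate 2. Of the Sen peaks, 32.1% and 39.3% of replicate 1 were found in Pro replicates 1 and 2, and 24.7% and 30.8% of replicate 2. Strong peaks were shared more often. Of the strongest 10% of Pro peaks by −log10 q, 99.8% to 99.9% were found in each Sen list, while each Pro list held 78.5% to 87.9% of the strongest 10% of Sen peaks. The longer Sen lists favour a higher share in the first direction, so nothing is read from the difference. Within a condition, Sen replicate 1 shared 85.0% of its peaks with Sen replicate 2, and Pro replicate 1 shared 82.1% with Pro replicate 2.

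Gained regions numbered 29856, which is 28.0% of all regions, and lost regions 327 (0.307%). Kept regions numbered 19231 (18.1%). The remaining 57114 regions had other patterns, and 43279 of all regions were in a single list. Of these, 31023 were in Sen replicate 2 alone and 9452 in Sen replicate 1 alone, against 1979 in Pro replicate 2 alone and 825 in Pro replicate 1 alone. Both Sen lists and 1 Pro list shared 10281 regions, while both Pro lists and 1 Sen list shared 818. Regions in 1 Sen and 1 Pro list, a pattern that joins unlike libraries, numbered 200 to 1517 for the 4 pairs, so in the whole lists, which differ in length, the lost regions fell within the range of unlike pairs and the gained regions lay above it. Leaving out a list loosens the rule for a class, so higher counts are then built in. Only the size of the rise differed between lists. Without Sen replicate 1 the gained regions numbered 61299 and the lost 646. Without Sen replicate 2 the lost numbered 833, without Pro replicate 1 they numbered 2327, and without Pro replicate 2 they numbered 1170.

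**Figure D1:**
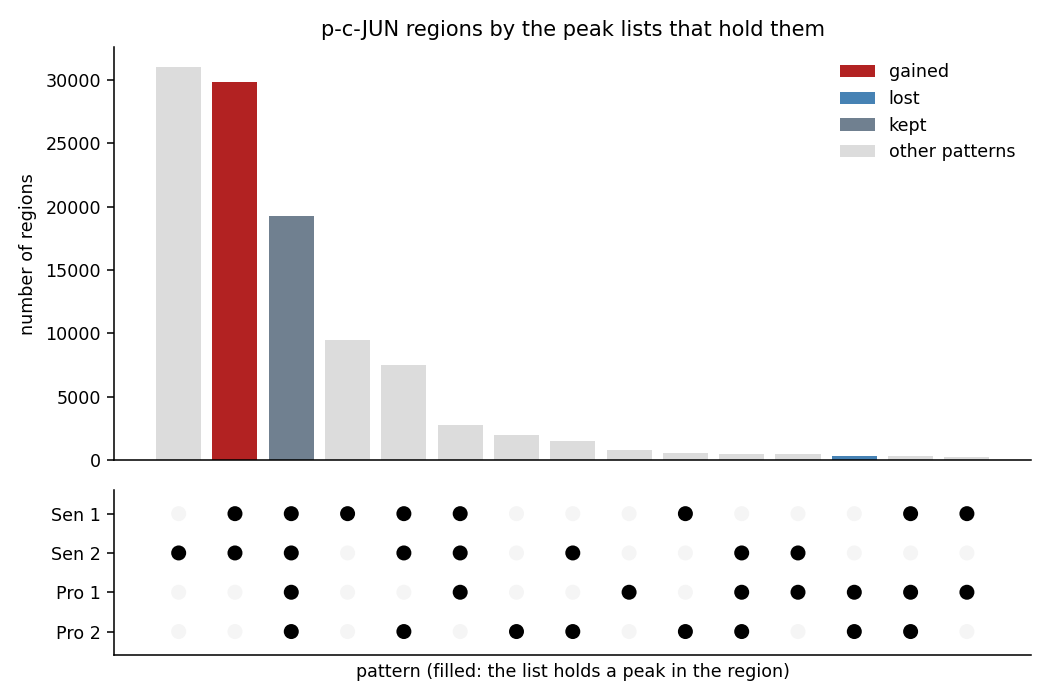
Number of p-c-JUN regions for each of the 15 patterns of presence in the 2 Sen and 2 Pro peak lists, with filled dots for the lists that hold a peak. Regions in Sen replicate 2 alone (31023) and gained regions (29856) are the most numerous, and lost regions (327) are among the fewest.

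The counts depended on list length. With all 4 lists cut to their 24808 strongest peaks, 41723 regions remained, of which 4244 (10.2%) were gained and 3510 (8.41%) lost. Regions in 1 Sen and 1 Pro list then numbered 558 to 583 for the 4 pairs, so both classes lay above the unlike pairs. Of the 4244 gained regions, 87.1% were also gained in the whole lists and 12.9% had a weaker peak in a whole Pro list. Of the 3510 lost regions, 6.55% were also lost in the whole lists and 93.4% had a weaker peak in a whole Sen list. The contrast between these shares follows in large part from list length. The cut left Pro replicate 1 whole and shortened Pro replicate 2 only from 32136 peaks, while the Sen lists had 70177 and 93443 peaks before it, so far more weak peaks were there to be found in Sen than in Pro. Nothing is read from it about the regions.

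Gained regions were weaker and narrower than kept ones. Their median fold enrichment was 5.55 and 6.12 in Sen replicates 1 and 2, against 8.53 and 9.18 for kept regions in the same lists. The summit pileup, the number of overlapping fragments at the summit, had medians of 12 and 13 for gained regions and of 27 and 28 for kept regions. Of the gained regions, 2.22% and 3.91% were among the strongest 10% of peaks in Sen replicates 1 and 2, against 29.3% and 36.6% of the kept regions. The median width was 468 bp for gained, 429 bp for lost and 661 bp for kept regions, where a kept region joins 4 peaks and the others join fewer. Lost regions were weak in Pro, with median folds of 4.79 and 5.19 in Pro replicates 1 and 2 and a median pileup of 11 in both, against folds of 6.61 and 7.30 and pileups of 17 and 18 for kept regions. Of the lost regions, 2 and 5 were among the strongest 10% of peaks of Pro replicates 1 and 2.

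Kept regions changed their order of strength between conditions more than between replicates. Spearman's rho of −log10 q over the 19231 kept regions was 0.809 between the Sen lists and 0.783 between the Pro lists. Between a Sen and a Pro list it ranged from 0.552 to 0.610, as a description over regions that share libraries and depth. Summits of kept regions lay a median of 46 bp apart between the Sen lists and 51 bp between the Pro lists and 52 to 61 bp between a Sen and a Pro list. Gained regions had their summits 64 bp apart between the Sen lists, and lost regions had theirs 68 bp apart between the Pro lists.

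Prior H3K27ac set gained regions apart from lost and kept ones, which were much alike in it. Of the gained regions, 34.5% overlapped an H3K27ac peak of Pro replicate 1 and 36.3% one of Pro replicate 2. For lost regions the shares were 84.4% and 85.0%, and for kept regions 88.9% and 88.4%. An H3K27ac peak in both Pro lists was found at 28.0% of gained, 80.7% of lost and 84.3% of kept regions, against 40.6% of all regions. Neither Pro list held H3K27ac at 17076 gained regions (57.2%), at 37 lost regions (11.3%) and at 1343 kept regions (6.98%). The share was 46.9% of all regions and 55.2% of the regions with other patterns. By overlap, gained regions thus lay mostly outside the H3K27ac peaks of Pro cells, whereas lost and kept regions lay mostly inside them. Many gained regions were still near such a peak. With overlaps included, the median distance was 1.24 kb, with 48.7% of gained regions within 1 kb and 75.7% within 10 kb. Lying outside was not particular to gained regions, since the regions with other patterns stood near them. Without Pro replicate 1 of p-c-JUN, the share of lost regions with H3K27ac in both Pro lists was 53.1%, with 2327 regions called lost.

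The share followed the number of Pro lists that held p-c-JUN. Among regions in both Sen lists, H3K27ac in both Pro lists was found at 28.0% of those in no Pro p-c-JUN list, at 63.7% of the 10281 in 1 Pro list and at 84.3% of those in both. Regions in a single Sen list and no Pro list had a share of 20.1%, and regions in a single Pro list and no Sen list had 47.7%. Regions in 1 Sen and 1 Pro list had 65.1%. At each number of Sen lists, the share was higher the more Pro lists held p-c-JUN.

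**Figure D2:**
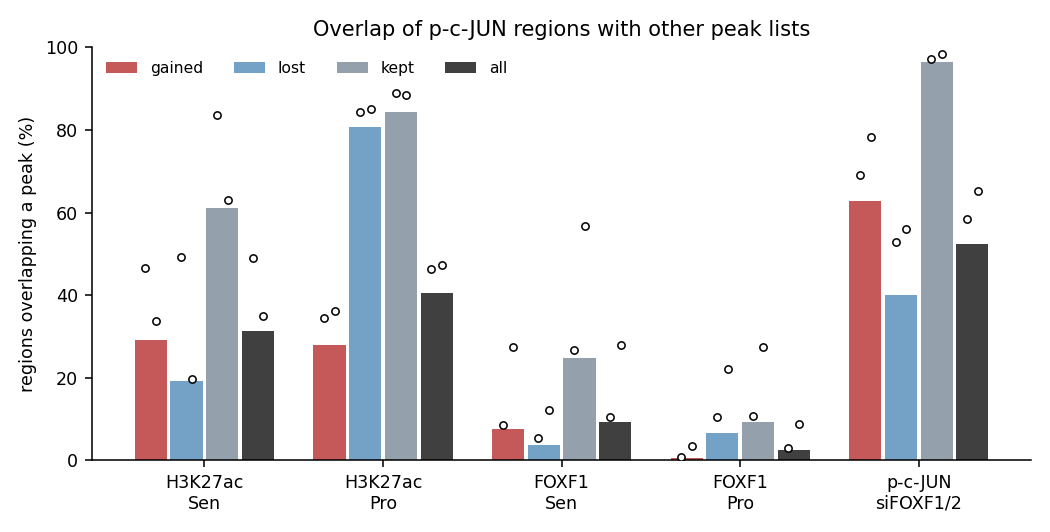
Share (%) of gained, lost, kept and all p-c-JUN regions that overlap peaks of other lists, where bars stand for a peak in both replicates and the open points for replicates 1 (left) and 2 (right). Bars for H3K27ac in Pro cells stand at 28.0% for gained, 80.7% for lost and 84.3% for kept regions, and the points for FOXF1 in Sen cells lie far apart between replicates.

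The same contrast was measured per library rather than per region. H3K27ac in both Pro lists was found under 47.2% and 41.8% of the peaks of Sen replicates 1 and 2, against 78.0% and 74.0% of the peaks of Pro replicates 1 and 2. The groups did not overlap, and the difference of the means was −31.5 percentage points ± 3.36 (SE, n = 2 per condition; p = 0.333 by the same exact test). With lists of 24808 peaks the shares were 63.9% and 65.0% in Sen and 78.0% and 78.4% in Pro, and the difference was −13.8 percentage points ± 0.559 (SE, n = 2 per condition; p = 0.333 by the same exact test). Peaks with no Pro H3K27ac were then 24.0% and 23.2% of the Sen peaks and 11.4% and 10.6% of the Pro peaks. The difference was smaller at equal list length, and kept its direction in all 4 libraries.

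The contrast was as large among regions of like strength in the Sen lists, and smaller among regions of like width. Gained and kept regions were ranked together by their weaker −log10 q rank in the Sen lists and split into 10 groups of equal size. In the strongest group, which held 399 gained and 4510 kept regions, median folds in Sen replicate 1 were 14.0 for both classes. There 20.1% of gained and 86.7% of kept regions had H3K27ac in both Pro lists, and 67.2% of gained and 5.70% of kept regions had it in neither. Across the 10 groups the share in both Pro lists ran from 20.1% to 30.0% for gained regions and from 81.3% to 86.7% for kept regions. The strongest gained regions were thus those least often acetylated in Pro cells. Among 10 groups by width, the share ran from 18.8% to 50.6% for gained and from 65.8% to 91.6% for kept regions. Wide regions of both classes overlapped H3K27ac more often. With equal weight over the width groups the shares were 31.3% for gained and 79.0% for kept regions, against 28.0% and 84.3% over all of each class.

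**Figure D3:**
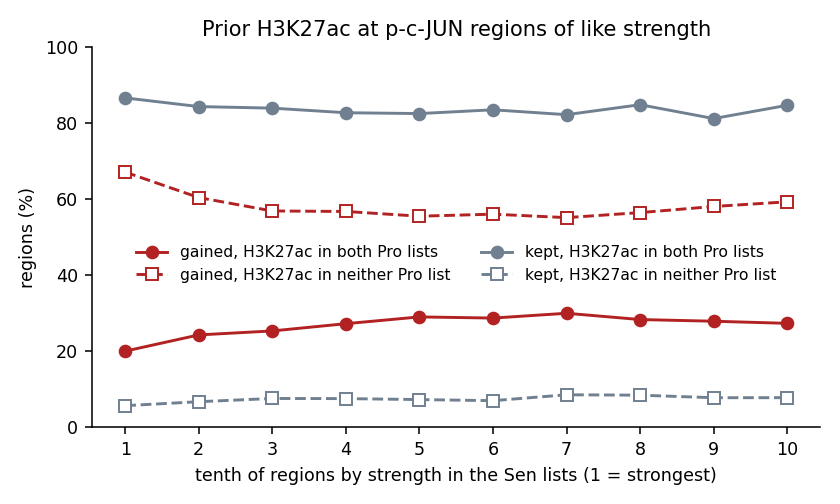
Share (%) of gained and kept p-c-JUN regions with H3K27ac peaks in both Pro lists or in neither, for 10 groups of equal size by strength in the Sen lists (1 is the strongest). Gained regions stay between 20.1% and 30.0% for both lists and kept regions between 81.3% and 86.7%.

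Where a gained region did overlap Pro H3K27ac, the acetylation peak was of middling strength. The 10375 and 10900 H3K27ac peaks of Pro replicates 1 and 2 that touched a gained region had a median rank of 49.4% and 48.0% from the top of their lists. Those under kept regions, 17501 and 17515 peaks, ranked at 24.7% and 24.9%. Those under lost regions, 278 and 280 peaks, ranked at 21.9% and 27.1%. Lost regions, although weak for p-c-JUN, lay under acetylation peaks about as strong as those of kept regions. With H3K27ac peaks of −log10 q of 5 or more only, an alternative added after the data had been seen, the shares in both Pro lists were 14.4% for gained, 62.1% for lost and 64.6% for kept regions. The order of the classes was the same.

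H3K27ac in Sen cells was next read at the same regions, from Sen replicates 1 and 2, the Sen lists of H3K27ac meant here. They had 84864 and 60862 peaks, against 84304 and 89329 in the Pro lists. Of the other Sen lists of H3K27ac, 2 came in a second deposit. Another 2, titled for comparison with sip300/CBP, were not read at these regions. Gained regions overlapped Sen replicates 1 and 2 at 46.6% and 33.8%, lost regions at 49.2% and 19.6%, and kept regions at 83.5% and 63.1%. Both Sen lists held H3K27ac at 29.2% of gained, 19.3% of lost and 61.1% of kept regions, against 31.4% of all regions. Sen replicate 1 gave higher shares than Sen replicate 2 in each class. Set beside the Pro lists, gained regions had a higher share in Sen replicate 1 and a lower one in Sen replicate 2, so no direction was common to both replicates. Lost and kept regions had lower shares in both Sen lists than in either Pro list.

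Acetylation before and after could be crossed. Of the 8350 gained regions with H3K27ac in both Pro lists, 64.1% also had it in both Sen lists and 10.9% in neither. For the 16212 kept regions acetylated in both Pro lists these shares were 69.4% and 7.43%. The 264 lost regions acetylated in both Pro lists differed from both classes, with 22.7% acetylated in both Sen lists and 43.2% in neither. Of the 17076 gained regions without H3K27ac in Pro, 11.2% had it in both Sen lists, 18.0% in 1 and 70.8% in neither. Thus 12084 gained regions (40.5%) had H3K27ac in none of the 4 lists, against 908 kept regions (4.72%), 33 lost regions (10.1%) and 39615 of all regions (37.2%), so that the gained share was near that of all regions. The 1911 gained regions with H3K27ac in both Sen lists and no Pro list made up 6.40% of the gained class, and the 108 such kept regions made up 0.562% of the kept class, against 3.24% of all regions.

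The leading regions of each class, by the better of their worst ranks, show these states one by one. The first gained region, at chr3:43995382-43995928, had folds of 25.0 and 28.8 and pileups of 109 and 116 in Sen replicates 1 and 2, and no peak in either Pro list. It had no H3K27ac and no FOXF1 peak in Pro or Sen replicates 1 and 2, and the nearest Pro H3K27ac peak lay 59.3 kb away. The second, at chr16:68435742-68436520, had folds of 23.6 and 23.2 in Sen replicates 1 and 2 and was acetylated in all 4 lists. The third, at chr5:81661557-81662200, and the fourth, at chr11:104534016-104534586, had H3K27ac and FOXF1 in both Sen lists and in no Pro list. The fourth had folds of 21.6 and 21.8 in Sen replicates 1 and 2, and lay 28.1 kb from Pro H3K27ac and 4.99 kb from a kept region. The fifth, at chr15:71069641-71070123, had folds of 14.5 and 14.8 and pileups of 105 and 114 in Sen replicates 1 and 2. It was acetylated in both Sen lists, and a Pro H3K27ac peak lay 0.509 kb away.

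Of the 10 leading gained regions, 8 had no Pro H3K27ac, 6 had H3K27ac in both Sen lists, 3 had FOXF1 in both Sen lists and none had FOXF1 in both Pro lists. All 10 were also in both Sen_siFOXF1/2 lists of p-c-JUN. Shares among the 399 gained regions of the strongest group were 67.2% without Pro H3K27ac and 45.4% with H3K27ac in both Sen lists. In that group 20.3% had FOXF1 in both Sen lists and 96.5% were in both Sen_siFOXF1/2 lists. Nothing particular to the 10 leading regions is read from their counts. Folds of these 10 ran from 14.5 to 25.0 in Sen replicate 1 and from 14.8 to 28.8 in Sen replicate 2. The 2 acetylated before, at chr16:68435742-68436520 and chr6:156171604-156172211, led the gained regions with prior H3K27ac. The fourth of those, at chr4:53432216-53432894, had folds of 19.5 and 19.3 in Sen replicates 1 and 2 and FOXF1 peaks in both Sen lists, and was 6.29 kb from a kept region.

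The leading lost region, at chr5:31365169-31365692, had folds of 13.0 and 12.2 and pileups of 58 and 46 in Pro replicates 1 and 2, and no Sen peak. It was acetylated in both Pro lists and neither Sen list, and a gained region lay 1.69 kb away. The second, at chr4:18884105-18884419, had folds of 12.4 and 13.7 in Pro replicates 1 and 2 and the same acetylation, and stood alone, 295 kb from a kept and 357 kb from a gained region. The third, at chr10:76053591-76053928, had folds of 10.5 and 13.2 in Pro replicates 1 and 2 and FOXF1 in both Pro lists. All 10 leading lost regions were acetylated in both Pro lists, 2 in both Sen lists and 5 in neither Sen list. Of all lost regions, 80.7%, 19.3% and 50.5% were in these states. Both Sen_siFOXF1/2 lists held 6 of the 10, against 40.1% of all lost regions, although no Sen list held any of the 10.

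Leading kept regions were high in all 4 lists, which the rule that picked them by their worst rank required. Over the whole kept class, median folds were 8.53 and 9.18 in Sen replicates 1 and 2. They were 6.61 and 7.30 in Pro replicates 1 and 2. The region at chr17:76858093-76858635 had folds of 30.8 and 32.7 in Sen replicates 1 and 2 and of 29.8 and 32.6 in Pro replicates 1 and 2. The region at chr11:20133602-20134261 had folds of 27.6 and 28.7 in Sen and of 26.6 and 32.3 in Pro. Of the 10, 9 were acetylated in both Pro lists and 8 in both Sen lists, against 84.3% and 61.1% of all kept regions. FOXF1 was in both Sen lists at 5 and in both Pro lists at 5, against 24.7% and 9.27% of all kept regions. Of the kept regions in the strongest group by Sen strength, 39.6% had FOXF1 in both Sen lists. The first of the 10 leading kept regions, at chr1:121484196-121485431, held peaks of all 3 antibodies in replicates 1 and 2 of Sen and of Pro. It ranked first in all 4 p-c-JUN lists, and whether it is bound or an artefact was not tested. Its distance was at most 2 Mb from the longest peak-free stretch on its chromosome, as was that of 1 other of the 10 and of 311 kept regions (1.62%). Of the gained regions 369 (1.24%) lay as near to such a stretch.

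Gained regions were interspersed with kept ones and seldom adjoined them. The median distance from a gained region to the nearest kept region was 32.5 kb, with 2.31% within 1 kb, 21.1% within 10 kb and 19.5% (5828 regions) beyond 100 kb. The median from a lost region to the nearest kept one was 25.7 kb, and between neighbouring kept regions it was 22.2 kb. Gained regions acetylated in both Pro lists lay closer, at a median of 25.6 kb, than the gained regions without H3K27ac in either, at 38.1 kb. The last group lay a median of 7.49 kb from the nearest Pro H3K27ac peak, with 10.3% within 1 kb and 57.5% within 10 kb. The 1343 kept regions outside Pro H3K27ac lay nearer, at a median of 2.89 kb, with 23.6% within 1 kb. Lost regions lay a median of 4.46 kb from the nearest peak of a Sen list, with 15.9% within 1 kb. That peak may be absent from the Pro lists, so the distance does not measure binding that remained. Since the Sen lists are long, such distances also reflect the number of peaks. At equal list length, where kept regions are fewer, the median from a gained to a kept region was 52.2 kb.

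**Figure D4:**
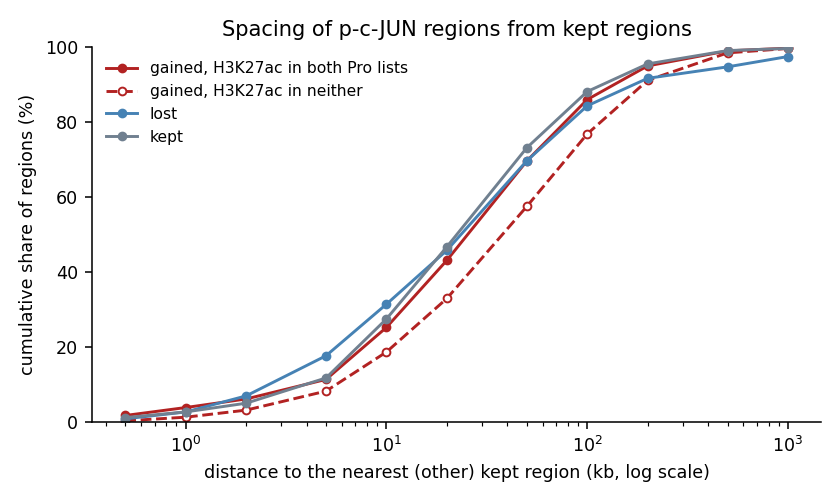
Cumulative share (%) of p-c-JUN regions against the distance (kb, log scale) to the nearest kept region, for gained regions with H3K27ac in both Pro lists or in neither, for lost regions, and for kept regions to the nearest other one. Gained regions without prior H3K27ac lie farthest, with a median of 38.1 kb.

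Gained regions formed few clusters. With neighbours at most 10 kb apart, 69.1% of gained regions stood alone, 3357 pairs were found, and 8.42% of gained regions were in 767 runs of 3 or more. Kept regions gave much the same, with 72.4% alone and 7.70% in runs of 3 or more. At a spacing of 5 kb the share of gained regions in runs was 1.32%, equal to that of kept regions at this precision. Without Sen replicate 1 the share at 10 kb was 21.6%, and at equal list length it was 0.801%. The 3 runs of 7 gained regions were the longest. One at chr3:71105451-71138940 spanned 33.5 kb, with 1 kept region inside, folds from 3.66 to 13.1 in Sen replicate 1 and from 4.47 to 14.3 in Sen replicate 2. None of its 7 regions was acetylated in both Pro lists, and 5 were in both Sen_siFOXF1/2 lists. One at chr2:102648946-102682645 also held 1 kept region, and 3 of its 7 regions were acetylated in both Pro lists. The run at chr10:114126796-114164888 spanned 38.1 kb with no kept region inside, and 5 of its 7 regions had no Pro H3K27ac. The next, with 6 gained regions each, were at chr10:14508223-14534090 and chr17:70121790-70148088.

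Density varied along the genome. Among the windows of 1 Mb that were counted, 165 held no kept region, and gained regions averaged 3.00 in these. The counted windows do not fill the chromosome spans. Windows without regions may thus be missing from this group, and its mean may be too high. In windows with 6 to 10 kept regions they averaged 13.4, and in the 82 windows with 21 or more they averaged 21.1. Gained regions were thus dense where kept regions were. They rose less than in proportion, but windows were sorted by the kept count itself, which favours such a pattern. Nothing is read from the proportion. Over all chromosomes there were 1.55 gained regions per kept region. The ratio was lowest on chromosome 19 (0.943), chromosome 22 (0.991) and chromosome 17 (1.19), and highest on chromosome X (2.09), chromosome 13 (2.05) and chromosome 4 (1.77). Gained regions per megabase of the span from first to last peak ran from 4.02 on chromosome X to 12.4 on chromosome 6, and kept regions from 1.92 on chromosome X to 9.39 on chromosome 22. Across the 23 chromosomes, Spearman's rho of gained per kept against kept per megabase was −0.50, a description in which both measures share the kept count. Chromosomes 19 and X were also the extremes within each replicate number. Sen replicate 1 had 2.24 times the peaks of Pro replicate 1 on chromosome 19 and 3.41 times on chromosome X, and Sen replicate 2 had 2.52 and 3.40 times those of Pro replicate 2. The prior H3K27ac share of gained regions lay between 24.7% on chromosome X and 34.6% on chromosome 19, below that of kept regions on each chromosome (73.3% on X to 86.8% on chromosome 15).

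**Figure D5:**
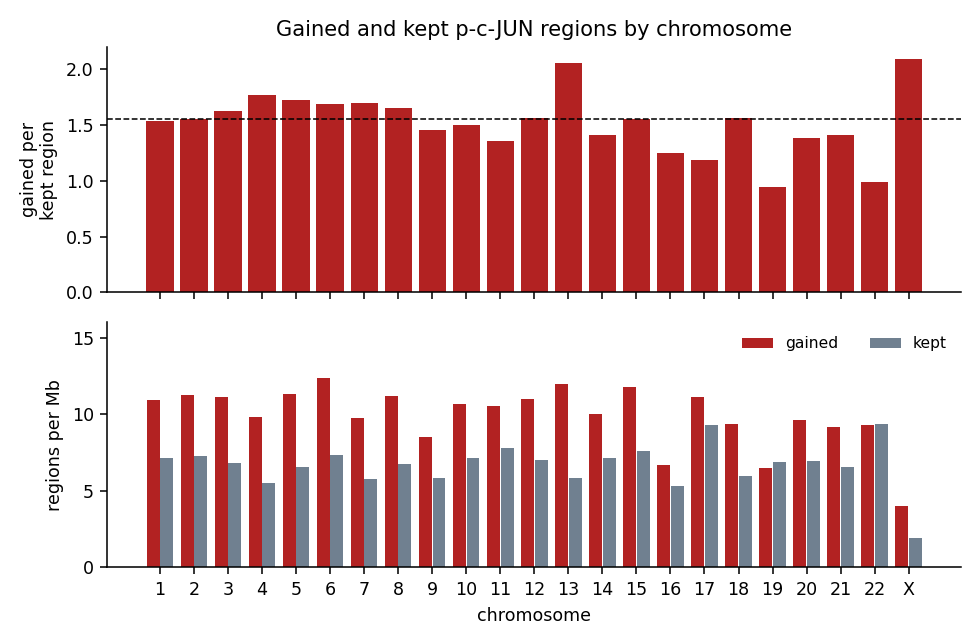
Gained p-c-JUN regions per kept region on each chromosome (above, with the dashed line at 1.55 for all) and gained and kept regions per megabase (below). Chromosomes 19 and 22 have the fewest gained regions per kept region, at 0.943 and 0.991, and chromosomes 13 and X the most, at 2.05 and 2.09.

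FOXF1 in Sen cells was found at gained regions less often than at kept ones, in both replicates. Gained regions overlapped FOXF1 peaks of Sen replicates 1 and 2 at 8.60% and 27.4%, and kept regions at 26.7% and 56.7%, against 10.5% and 28.0% of all regions. The gained shares were thus near those of all regions. FOXF1 lists of Pro cells, which were shorter, overlapped gained regions at 0.801% and 3.35% and kept regions at 10.7% and 27.5%. FOXF1 in both Sen lists was found at 7.55% of gained regions, against 9.31% of all regions. Among gained regions it was at 15.6% of those acetylated in both Pro lists and at 3.50% of those acetylated in neither. The order was the same within each FOXF1 list, at 17.4% against 4.16% in Sen replicate 1 and 46.5% against 17.3% in Sen replicate 2. Median folds of p-c-JUN did not set these groups apart, at 5.40 and 6.16 in Sen replicates 1 and 2 for gained regions with prior H3K27ac, and 5.62 and 6.10 for those without. In kept regions the same split was 26.9% against 12.1%.

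Gained regions were looked up in the p-c-JUN lists of Sen cells after siFOXF1/2. These lists had 75005 and 86110 peaks in replicates 1 and 2 and did not enter the calls. Both Sen lists did enter them, so no Sen list was left as a baseline. Nothing is thus read about loss after siFOXF1/2. The Sen_siFOXF1/2 lists of p-c-JUN held 69.1% and 78.3% of gained regions in replicates 1 and 2, 97.3% and 98.5% of kept regions and 52.9% and 56.0% of lost regions. Both lists held 62.9% of gained regions, against 52.4% of all regions, 96.4% of kept and 40.1% of lost regions. The share was close for both acetylation states, with 65.0% of gained regions acetylated in both Pro lists and 61.2% of those acetylated in neither. Strength went with recovery, from 96.5% in the strongest of the 10 groups of gained regions to 38.2% in the weakest. Kept regions ran from 72.8% to 100% over the same groups. Regions in Sen replicate 2 alone, the most numerous pattern, were recovered in both lists at 16.9%, and those in Sen replicate 1 alone at 25.7%. Without Sen replicate 1 the gained regions so recovered were 39.4% of 61299.

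Within the kept class, some regions moved in strength. When ranked among the 19231 kept regions, 1127 (5.86%) stood at least 25 percentile points higher in both Sen lists than in both Pro lists, and 972 (5.05%) stood as much lower. Those higher in Sen had H3K27ac in both Pro lists at 68.7%, FOXF1 in both Sen lists at 27.3% and FOXF1 in both Pro lists at 1.77%. Those lower in Sen had H3K27ac in both Pro lists at 88.5%, FOXF1 in both Sen lists at 19.8% and FOXF1 in both Pro lists at 15.3%. Kept regions as a whole stood at 84.3%, 24.7% and 9.27%. The kept regions that stood higher in Sen were less often acetylated in Pro cells than kept regions as a whole, and those that stood lower overlapped FOXF1 of Pro cells more often.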

How the data were processed

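The 24 peak lists used here (p-c-JUN, FOXF1, H3K27ac) were deposited in narrowPeak format, 1 per library, none pooled. The submitters' processing notes name MACS2 3.0.0, Bowtie2 2.3.4.1, deepTools 3.1.1, SAMtools 1.9 and the build hg19, and give no settings. A control library and any use of the yeast spike-in for scaling are not given in the sources used here. Reads were 35-bp pairs, per the labels' protocols.

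Each deposited peak carries a display score, a fold enrichment, −log10 values of p and q, and a summit offset (another whole number), as the authors' peak caller wrote them. They describe or rank peaks within a list only.

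Other chromosomes were left out (89 p-c-JUN peaks). Coordinates are hg19, counted from 1. The summit pileup and its local background were obtained from each peak's fold and −log10 p, trying backgrounds of 0.3 fragments or more. For 100% of the peaks of −log10 p under 60, a whole pileup returned the deposited −log10 p to within 0.0005. The lowest background was its 0.1% quantile, and its value per kilobase took the width of the narrowest peak of the list as divisor. On simulated lists of well separated regions the planted classes were recovered, which checks the code and not the calls on real peaks.

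Named regions are, per class, the 10 whose worst −log10 q rank over the lists that held them was best, the 5 leading gained regions with and without prior H3K27ac, and the 5 longest runs. Classes, lists and rules were chosen with earlier results of these data known. Python 3.11.15 with SciPy 1.17.1 was used. Alternatives were −log10 q of 5 or more, equal list length, an overlap of 50%, each library left out, 3 other rules for H3K27ac, a spacing of 5 kb, a replicate block and regions away from peak-free stretches. Strata and H3K27ac peaks of −log10 q of 5 or more alone were chosen after seeing the data.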

Additional observations from a re-analysis of the deposited data

How the results depend on the processing

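With all lists, H3K27ac included, held to −log10 q of 5 or more, the shares of gained, lost and kept regions with H3K27ac in both Pro lists were 19.6%, 66.1% and 68.5%, and the median distance from a gained to the nearest kept region was 44.6 kb. At equal list length, 4244 regions were gained, 3510 lost and 11707 kept, the shares for gained and lost regions were 29.3% and 82.8%, the distance was 52.2 kb, 0.801% of gained regions lay in runs of 3 or more, and 92.0% were in both Sen_siFOXF1/2 lists. With H3K27ac in at least 1 Pro list the shares for gained, lost and kept regions were 42.8%, 88.7% and 93.0%, and with the p-c-JUN summit inside the H3K27ac peak they were 23.9%, 75.5% and 79.0%. With H3K27ac within 500 bp they were 31.0% for gained and 83.8% for lost regions. A spacing of 5 kb gave 1.32% of gained regions in runs. Among the alternatives added after the data had been seen, H3K27ac peaks of −log10 q of 5 or more gave 14.4%, 62.1% and 64.6%, equal weight over 10 strata of strength gave 26.8% for gained regions, and equal weight over 10 strata of width gave 31.3% for gained and 79.0% for kept regions. In each of these alternatives the gained share stayed below the lost and kept shares where those were computed. Each library was also left out in turn, which loosens the rules for the classes, so higher counts are built in. Gained regions then numbered 32630 to 61299, lost regions 646 to 2327 and kept regions 19532 to 26739. H3K27ac in both Pro lists was at 24.1% to 35.1% of gained, 53.1% to 79.6% of lost and 78.4% to 84.1% of kept regions. The distance was 21.9 to 33.4 kb, the share in runs 9.92% to 21.6%, and the share in both Sen_siFOXF1/2 lists 39.4% to 67.0%. The log2 difference in peak number was 1.31 to 1.73. Of 88 values under alternatives, 43 stayed within the spread or within 1.5 times the count and 45 moved further, with no direction turned. Replicate numbers are shared between Sen and Pro without a stated pairing. With the replicate block the log2 difference was 1.52 (exact two-sided permutation p = 0.5, the smallest that 4 arrangements allow), and deviations of same-numbered lists over kept regions correlated at 0.0304. Shares of regions at start sites, counts of genes with a gained region and AP-1 motif shares were planned and not run, because no hg19 annotation or genome was used here. Depth limits the calls, since a gained region is absent from the Pro lists only above the caller's threshold, and the mapped reads are unknown.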

Other observations

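The second deposit held 2 more Sen H3K27ac lists, with 48859 and 26694 peaks. They overlapped 24.7% and 13.2% of gained p-c-JUN regions, 18.0% and 9.17% of lost regions and 54.5% and 35.7% of kept regions, against 28.1% and 16.3% of all regions. Of the gained regions, 3032 (10.2%) were acetylated in both of these lists and 21595 (72.3%) in neither, close to the 13.5% and 69.1% of all regions.

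Lost regions overlapped FOXF1 of Pro cells more often than gained regions did, as kept regions also did. FOXF1 peaks of Pro replicates 1 and 2 overlapped 10.4% and 22.0% of the 327 lost regions and 0.801% and 3.35% of the gained regions, and FOXF1 peaks of Sen replicates 1 and 2 overlapped 5.50% and 12.2% of lost and 8.60% and 27.4% of gained regions. Kept regions overlapped FOXF1 of Pro replicates 1 and 2 at 10.7% and 27.5%, against 2.90% and 8.67% of all regions. Overlap with Pro FOXF1 was thus not particular to lost regions. The Pro FOXF1 lists had 3441 and 11061 peaks, against 13603 and 40537 in the Sen FOXF1 lists. In lost regions the share was higher in the Pro list than in the Sen list of the same number, although the Pro lists were shorter, and in gained regions it was lower. These 2 lists a condition allow no test below an exact permutation p of 0.333.

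The 33 lost regions without H3K27ac in any of the 4 lists included few that were found again after siFOXF1/2, with 15.2% in both Sen_siFOXF1/2 lists, against 60.5% of the 12084 such gained regions and 92.6% of the 908 such kept regions. Of all 39615 such regions the share was 35.1%.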
